A study of Sus scrofa with 3 samples.

Results

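miR-1 and miR-208a were followed across small RNA libraries of a red, an intermediate, and a white porcine skeletal muscle. They were taken from the deposited table of conserved miRNAs as the entries whose precursors in other mammals are most often named miR-1 or miR-208a. This gave 4 of the 152 listed miRNAs, namely the 3p and 5p arms of 2 precursors, and all 4 passed the minimum of 3 reads summed over the libraries that left 108 unique sequences for testing. The samples were peroneal longus (PL, "peroneal longu" in the labels) as the red muscle, psoas major muscle (PMM) as the intermediate, and longissimus dorsi muscle (LDM) as the white one, from female Landrace pigs of 210 days. Each muscle has 1 library, so that the spread between animals is unknown, and all folds and tests here compare libraries and not muscles. Small RNA of 3 pigs was pooled for PL. PMM and LDM were sequenced in an earlier study of the same animals, and the sources used here describe no pooling for them, so PL cannot be told apart from its sequencing batch. Only PMM against LDM is free of that difference.

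miRNAs are cut from a hairpin precursor whose arms each yield a short RNA, named 5p and 3p. One arm is usually loaded into the Argonaute complex, where its seed, which is bases 2 to 8, pairs with target mRNAs and lowers their translation or stability. miR-1 is a striated muscle miRNA that in mouse promotes myoblast differentiation, with the deacetylase gene Hdac4 among its targets. miR-208a is known in mouse and human as a heart miRNA, encoded within an intron of Myh6, the gene of the alpha-cardiac myosin heavy chain. In the mouse heart it represses Med13 and takes part in the control of beta-myosin, the slow isoform. Its relatives miR-208b and miR-499 lie within the myosin genes Myh7 and Myh7b and are counted with it among the miRNAs of the slow fiber program.

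The listed mature sequences are shown 5′ to 3′, with the seed in capitals, since the seed decides which mRNAs can be bound:
miR-1-3p: tGGAATGTaaagaagtgtgtat
miR-1-5p: aCATACTTctttatgtacccat
miR-208a-3p: aTAAGACGagcaaaaagcttgt
miR-208a-5p: gAGCTTTTggcccgggttatac

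No other sequence of the table had any of these 4 seeds. Known porcine miRNAs, which the paper lists apart from this table, were not searched for them. Without gaps, the closest other sequence of the table differed at 7 bases or more from each arm. All 4 are 22 bases long, as are 57 of the other 148 listed miRNAs. Their GC content was 31.8% for each arm of miR-1, 36.4% for miR-208a-3p, and 54.5% for miR-208a-5p, against a median of 45.5% among the others. miR-1-3p, miR-1-5p, and miR-208a-3p were thus below the lower quartile of 39.1%.

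The miR-1-3p entry was not found in its own precursor. It is compared here with the stretch of the precursor that it lies on, with the differing base in capitals:
listed miR-1-3p: tggaatgtaaagaagtGtgtat
listed precursor: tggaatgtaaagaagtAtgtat

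The difference is A17G and lies outside the seed. The first letter is the base of the precursor and the last that of the listed miRNA, with positions counted from 1 at its 5′ end. The table gives 2 different precursor sequences for this position, and the unchanged stretch is in each of them. Thus the values below are those of a sequence that is 1 base away from miR-1-3p as known in mammals. Where its reads come from was not tested. The porcine miR-1 counted among the known miRNAs of the pig was not analysed here. The paper, from the same libraries, lists miR-1 among the miRNAs enriched in LDM.

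The miR-208a entries were found exactly in their precursor, which is shown with both arms in capitals as they lie on the hairpin:
miR-208a hairpin: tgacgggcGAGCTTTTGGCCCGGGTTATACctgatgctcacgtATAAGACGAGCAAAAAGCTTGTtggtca

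The 5p arm spans bases 9 to 30 of these 71 bases and the 3p arm bases 44 to 65, with 13 bases between them. The predicted fold of this hairpin has a minimum free energy of -32.4 kcal/mol with 18 of the 22 bases of miR-208a-3p paired. That of the miR-1-3p precursor is -36.0 kcal/mol with 21 bases paired. The other entries had a median energy of -35.05 kcal/mol and a median of 18 paired bases.

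The miR-1 entries lie on the plus strand at chr6:99481915-99482025 and the miR-208a entries on the minus strand at chr7:81043844-81043943 of Sscrofa10.2. Neither has a close neighbor in the table, apart from which the paper lists the known porcine miRNAs. The nearest other conserved miRNA on the chromosome was 5.06 Mb away for miR-1 (miR-3976-3p) and 51.1 Mb away for miR-208a (miR-431-3p). Whether these positions are intronic or exonic was not looked up, for lack of an annotation of this build among the references used. In the RefSeq annotation of a later assembly, Sscrofa11.1, which served for names and neighbors only, MIR208B lay within MYH7 and MIR499 within MYH7B. The annotated MIR1 had MIR296 and MIR133A-1 as its neighbors among miRNA genes, and MIR296 was also next to MIR499. These genes were matched by name, so the annotated MIR1 is not shown to be the entry on chromosome 6.

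The table holds 23583 reads of unique sequences from PL, 16286 from PMM, and 12463 from LDM. The libraries held 9.17 M (PL), 18.46 M (PMM), and 16.62 M (LDM) raw reads, so that the table is a small part of each. Levels are therefore RPM, which is reads per 1 M of these raw reads, with exact 95% Poisson intervals. Because reads are not separate molecules, the intervals cover counting error only. A limit of 3 reads corresponds to 0.327, 0.163, and 0.1805 RPM for PL, PMM, and LDM.

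miR-1-3p, the arm that acts as the miR-1 guide in other mammals, was highest in the white muscle and lowest in the red one. Its reads were 44 (PL), 892 (PMM), and 1318 (LDM). The level was 4.80 RPM (3.49 to 6.44) in the red, 48.3 RPM (45.2 to 51.6) in the intermediate, and 79.3 RPM (75.1 to 83.7) in the white muscle. The 3 intervals do not overlap, with PL far below both other libraries and a smaller step from PMM to LDM.

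miR-1-5p, the opposite arm of the same hairpin, was lower than miR-1-3p in every library. Its reads were 7 (PL), 35 (PMM), and 34 (LDM), or 0.763 RPM (0.307 to 1.57), 1.90 RPM (1.32 to 2.64), and 2.05 RPM (1.42 to 2.86). PL was again the lowest, but its interval overlaps those of PMM and LDM, which were nearly level with each other.

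miR-208a-3p, the guide arm of the cardiac miRNA, had the opposite order. Its reads were 118 (PL), 13 (PMM), and 1 (LDM), which is 12.9 RPM (10.7 to 15.4), 0.704 RPM (0.375 to 1.20), and 0.0602 RPM (0.00152 to 0.335), respectively. The red muscle stands well above the others, while the value in LDM rests on a single read and lies under the limit of 3 reads. miR-208a-5p, its opposite arm, had 3 reads each in PL and PMM, or 0.327 RPM (0.0675 to 0.956) and 0.163 RPM (0.0335 to 0.475), and 0 reads in LDM. With 0 reads the exact interval reaches up to 0.222 RPM there, so no order of the libraries can be read for this arm.

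**Figure D1:**
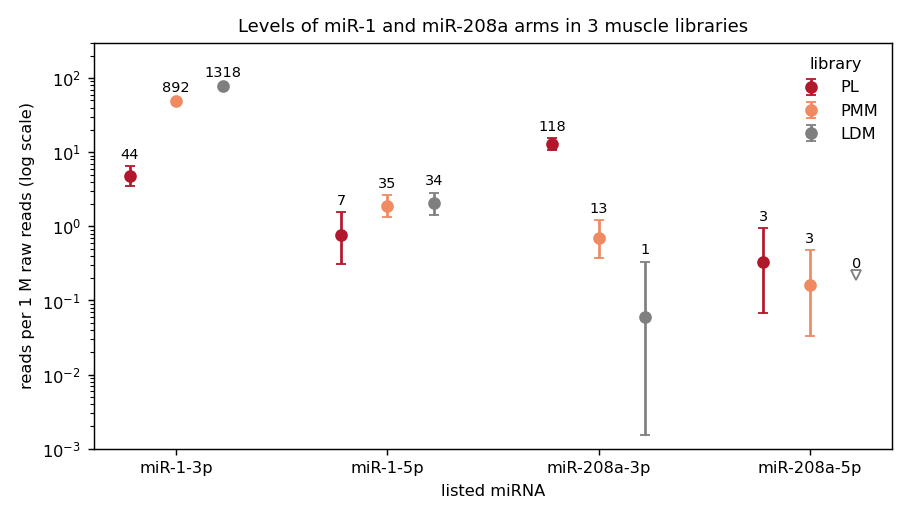
Levels of the 4 arms in reads per 1 M raw reads (log axis) in PL, PMM, and LDM, 1 library each. Bars are exact 95% Poisson intervals, numbers are reads, and the open triangle is the upper end of the interval at 0 reads. miR-1-3p goes from 44 reads in PL to 1318 in LDM, and miR-208a-3p from 118 in PL to 1 in LDM.

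A difference between 2 libraries was called where the Audic-Claverie test, Fisher's exact test, and a chi-squared test of the 2 × 2 counts all had a two-sided Bonferroni-adjusted p under 0.001 over the 108 miRNAs and the levels differed by more than 1.5-fold. Ratios of RPM have exact 95% intervals from the binomial distribution.

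Between the red and the intermediate muscle, 1 of the 4 arms was called higher in PL, where 11.1% of all tested miRNAs were, and 1 higher in PMM, where 10.2% were. miR-208a-3p was 18.3-fold higher in PL (10.3 to 35.3), with a largest adjusted p of 5.25e-40 over Fisher's exact test and the other tests. miR-1-3p was 10.1-fold higher in PMM (7.44 to 13.96), with a largest adjusted p of 1.89e-74 over the same tests, Fisher's exact test included. miR-1-5p was 2.48-fold higher in PMM (1.09 to 6.63) and was not called. miR-208a-5p, with 3 reads in each library, was at 2.01-fold in PL (0.270 to 15.0) and was not called either. With a coefficient of variation of 0.4 between libraries of the same muscle assumed in an exact negative binomial test, neither miR-208a-3p (adjusted p = 0.0011) nor miR-1-3p (adjusted p = 0.065) was called.

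Between the red and the white muscle, again 1 arm was called higher in PL, where 14.8% of all tested miRNAs were, and 1 higher in LDM, where 8.33% were. miR-208a-3p was 213.9-fold higher in PL with an interval of 37.6 to 8518, since LDM has 1 read, and a largest adjusted p of 1.42e-45 over Fisher's exact and the other tests. miR-1-3p was 16.5-fold higher in LDM (12.2 to 22.9), with 4.52e-135 as the largest adjusted p. With an assumed coefficient of variation of 0.4, miR-208a-3p kept its call in an exact negative binomial test and miR-1-3p did not (adjusted p = 0.0044). miR-1-5p was 2.68-fold higher in LDM (1.17 to 7.16), with an unadjusted p of 0.016 at most in Fisher's exact and the other tests, and it was not called.

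Between the intermediate and the white muscle, which do not differ in sequencing study, miR-1-3p was called higher in LDM, as were 3.70% of all tested miRNAs, and no arm was called higher in PMM, where 7.41% were. miR-1-3p was 1.64-fold higher in LDM (1.51 to 1.79), with a largest adjusted p of 9.99e-29 over Fisher's exact and the other tests. miR-208a-3p was 11.7-fold higher in PMM (1.76 to 497). With 13 reads against 1, its largest unadjusted p was 0.0026 and its adjusted p 0.28 by Fisher's exact test and the others together, and it was not called. miR-1-5p was at 1.08-fold in LDM over PMM (0.653 to 1.78), so a difference like that of miR-1-3p lies within its interval. With an assumed coefficient of variation of 0.2, the call of miR-1-3p between PMM and LDM was lost (unadjusted p = 0.084, exact negative binomial test).

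These ratios depend on the library total. Over the miRNAs with reads in both libraries, the median log2 ratio was 0.0094 for PL over PMM (83 miRNAs), 0.27 for PL over LDM (77), and 0.53 for PMM over LDM (91). The log2 ratio of miR-1-3p minus this median was -3.34, -4.32, and -1.24, and that of miR-208a-3p was 4.18, 7.47, and 3.02, respectively. miR-26b-5p, the most abundant miRNA of the table, had 21348, 10208, and 7833 reads in PL, PMM, and LDM, and thus weighs most on a total of summed reads. When the conserved reads were summed as library total, the log2 ratio of PL over PMM was 2.65 for miR-208a-3p and -4.88 for miR-1-3p, and without miR-26b-5p in the sum it was 4.63 and -2.90. The direction of calls over the whole table turned with this choice. With raw reads, 12 miRNAs were called higher in PL and 11 higher in PMM, with summed conserved reads 2 and 27, and without miR-26b-5p in the sum 17 and 7. Of PL and LDM, 16 and 9 were called higher with raw reads, 5 and 22 with summed conserved reads, and 11 each with TMM, the trimmed mean of M values. Of PMM and LDM, 8 and 4 were called higher with raw reads, 5 and 4 with either sum or with median-of-ratios size factors, and 4 each with TMM. The calls of miR-1-3p and miR-208a-3p between PL and each other library were the same under all 4 other totals. miR-1-5p was called lower in PL against both libraries with summed conserved reads (log2 ratios of -2.86 and -3.20), and with none of the other 3 totals.

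**Figure D2:**
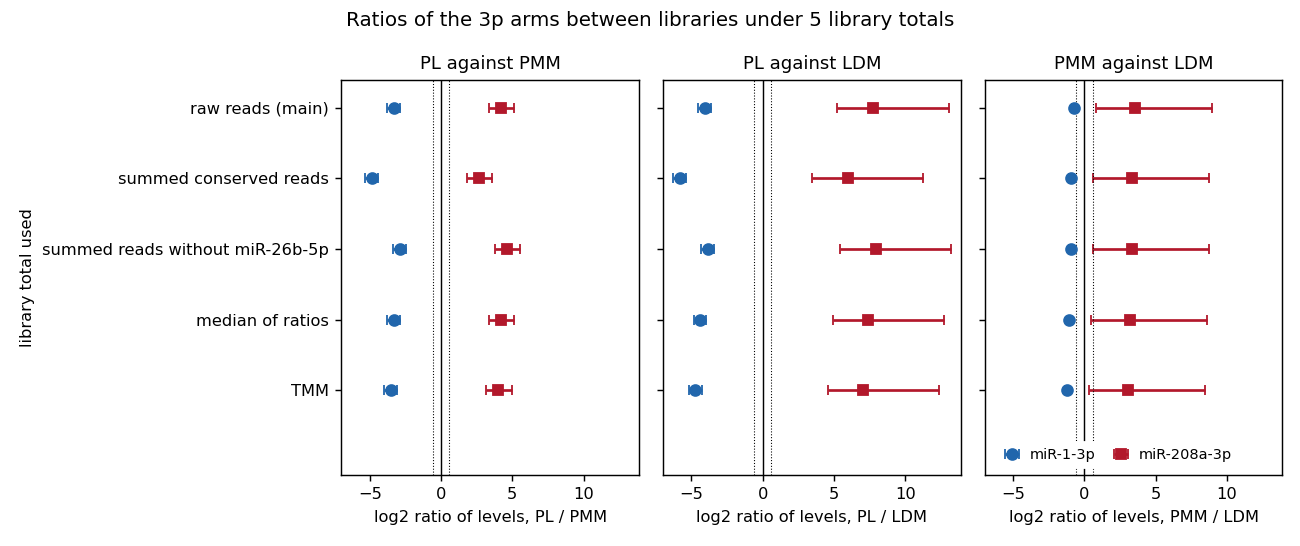
Log2 ratios of RPM of miR-1-3p (circles) and miR-208a-3p (squares) for the 3 pairs of libraries, under the raw reads and 4 other library totals. Bars are exact 95% intervals and dotted lines mark 1.5-fold. miR-1-3p lies on the negative side and miR-208a-3p on the positive side in all panels, with long bars for miR-208a-3p wherever LDM, with 1 read, is compared.

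The reads of miR-1-3p per read of miR-208a-3p in the same library need no library total. This measure was chosen after the counts were seen and combines the folds given above, so it is no further evidence for them. There were 0.373 reads of miR-1-3p per read of miR-208a-3p in PL (95% interval 0.258 to 0.531), against 68.6 (39.9 to 129) in PMM and 1318 (236 to 52097) in LDM. The libraries were compared by a conditional odds ratio, an estimate that is not exactly the quotient of these values. It was 181.1 for PMM over PL (93.3 to 379) and 19.2 for LDM over PMM (2.87 to 817). Thus the listed miR-208a-3p had more reads than the listed miR-1-3p in the PL library and fewer in the other libraries. Reads of different sequences need not be in proportion to their amounts.

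Within each library, the place among the conserved miRNAs was also given by the reads. miR-1-3p was in rank 14 in PL (with 2 others at the same reads), rank 3 in PMM, and rank 2 in LDM, behind only miR-26b-5p there. miR-208a-3p was in rank 5 in PL, rank 44 in PMM (2 others at the same reads), and rank 87 in LDM, where 21 others also had 1 read. miR-1-5p was in rank 40, 27, and 20 in PL, PMM, and LDM, respectively. Of the conserved reads, miR-1-3p made up 0.187% in PL (0.136% to 0.2504%, Clopper-Pearson at 95%), 5.48% (5.13% to 5.84%) in PMM, and 10.6% (10.0% to 11.1%) in LDM. Conversely, miR-208a-3p made up 0.5004% (0.414% to 0.599%) in PL, 0.0798% (0.0425% to 0.136%) in PMM, and 0.00802% (0.000203% to 0.0447%) in LDM. These shares depend on miR-26b-5p, which had 21348 of the 23583 conserved reads in PL. Without it in the sum, miR-1-3p made up 1.97% in PL, 14.7% in PMM, and 28.5% in LDM. For miR-208a-3p the shares were then 5.28%, 0.214%, and 0.0216%, respectively.

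Neighbors in rank are by definition those with the next higher or next lower reads, so small ratios are built in. Most of these neighbors did not differ from the members beyond counting error. In PL, miR-1-3p lay between miR-301a-3p (56 reads) and miR-26b-3p (41 reads), and neither interval of the ratio excluded 1. miR-208a-3p in PL was below miR-2887-5p (178 reads, 1.51-fold, 1.19 to 1.92) and could not be told from miR-5105-3p (113 reads). In contrast, miR-1-3p was set apart in LDM, where miR-26b-5p had 5.94 times its reads (5.61 to 6.30), and it had 2.13 times those of miR-6529-5p (1.93 to 2.34). In PMM it lay between miR-6529-5p with 1.25 times its reads (1.14 to 1.36) and miR-716a-3p, of which it had 1.40 times the reads (1.26 to 1.55).

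**Figure D3:**
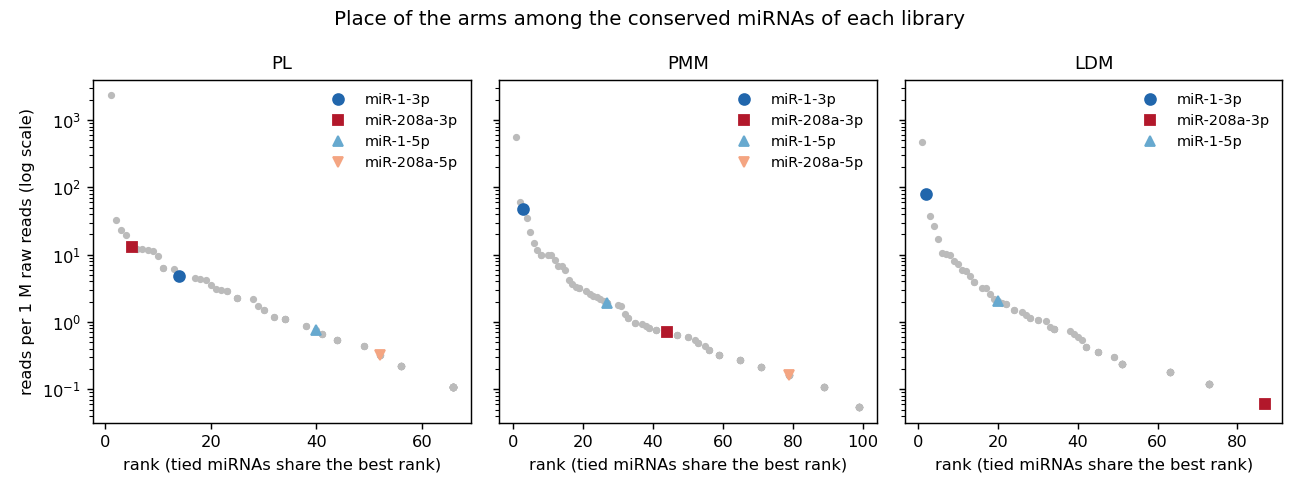
Level in reads per 1 M raw reads (log axis) against rank for the unique conserved miRNAs with reads in PL, PMM, and LDM (grey), with the arms of miR-1 and miR-208a marked. miR-1-3p moves from rank 14 in PL to rank 2 in LDM, while miR-208a-3p moves from rank 5 to rank 87, the tied place of all miRNAs with 1 read, and miR-208a-5p with 0 reads in LDM is not drawn there.

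The share of the 3p arm compares the reads listed for the arms of a precursor position within a library. For miR-1 it was 86.3% of 51 reads in PL (Clopper-Pearson interval at 95%, 73.7% to 94.3%), 96.2% of 927 reads (94.8% to 97.4%) in PMM, and 97.5% of 1352 reads (96.5% to 98.3%) in LDM. The interval of PL lies just below that of PMM, and no test of this difference was made. For miR-208a it was 97.5% of 121 reads in PL (92.9% to 99.5%) and 81.2% of 16 in PMM (54.4% to 96.0%), and LDM with 1 read gives no usable share. Among the listed sequences, both miRNAs thus had most of their reads on the 3p entry in PL and PMM, and miR-1 in LDM as well. Other positions were taken where both arms are listed and together have at least 10 reads in the library. An arm without reads did not exclude a position. Their median 3p share was 65.8% in PL (22 positions), 57.8% in PMM (27), and 41.6% in LDM (22). The 3p share was above 80% at 8, 8, and 7 of them. As the listed miR-1-3p differs from its precursor while miR-1-5p does not, the share of miR-1 is that of the listed sequences. It is not shown to be the arm use of the hairpin.

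**Figure D4:**
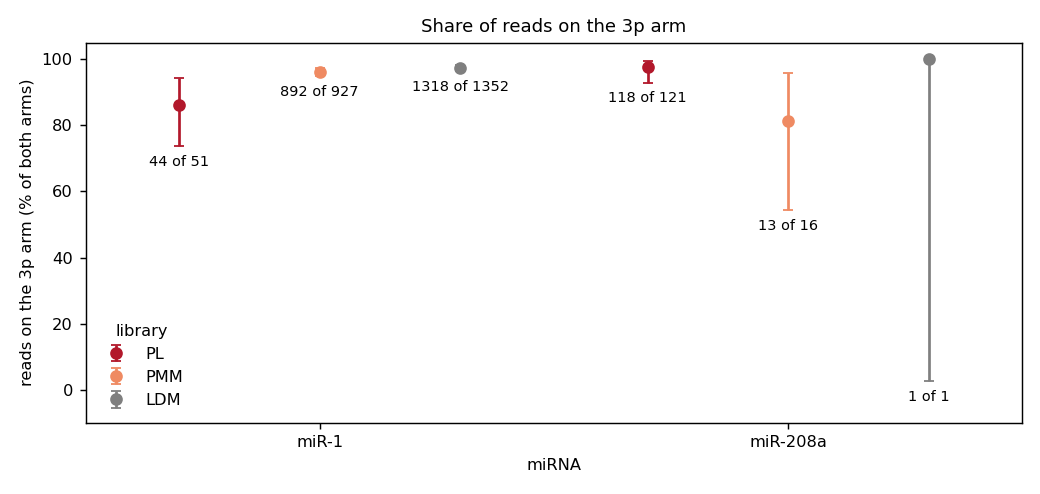
Percent of reads on the 3p arm among the reads of both arms of miR-1 and miR-208a in PL, PMM, and LDM. Bars are 95% Clopper-Pearson intervals, and labels give reads of the 3p arm of reads of both arms. All shares are above 80%, with a wide interval for miR-208a in PMM (13 of 16) and no information in LDM (1 of 1).

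Profiles over the 3 libraries were compared among 46 miRNAs with at least 30 reads, as the Euclidean distance between log2(RPM + 0.1) values centered on their mean. With 3 libraries this is a description only. Nearest to miR-208a-3p were miR-411c-5p (distance 0.95), with 58, 16, and 1 reads in PL, PMM, and LDM, miR-377-3p (1.52), with 58, 18, and 4 reads, and miR-2887-5p (1.60), with 178, 14, and 11 reads. Nearest to miR-1-3p were miR-716a-3p (1.01), with 38, 639, and 445 reads, miR-590-5p (1.09), with 11, 111, and 122 reads, and miR-3591-3p (1.09), with 1, 17, and 18 reads. Those of miR-1-5p were miR-330-3p (0.62), miR-223-3p (0.63), known from myeloid blood cells, and miR-200b-3p (0.65), known from epithelia. The arms of miR-1 were 2.01 from each other, and miR-1-3p and miR-208a-3p were 7.53 apart.

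The table holds conserved miRNAs, placed through precursors of other mammals, while the paper lists known porcine miRNAs apart. A miRNA without an entry here can thus be abundant in these libraries, as the paper reports for miR-133a. Of 8 muscle miRNAs set as a list, only miR-1 and miR-208a have an entry in this table. The paper, from the same libraries, reports miR-208b and miR-499 as highly expressed in PL. These and the others of the list, miR-133a, miR-133b, miR-206, and miR-486, were not analysed here. The same holds for 22 of 23 further miRNAs known from heart or muscle. The remaining one, miR-26a, an abundant miRNA of many tissues, had 8 reads in PMM over its arms and 1 in each other library. These reads are those of its conserved entries alone and do not give its level in the muscles. Working with the known porcine miRNAs, the paper reports miR-26a as highly expressed in PL. Few muscle markers could thus be followed here, and the muscle of each library is taken from its label. Among miRNAs of other cell types, 3 of 5 epithelial ones had an entry, with sums of 0.981, 4.23, and 1.93 RPM in PL, PMM, and LDM, 2 of 4 neural ones with 0, 10.2, and 1.26 RPM, and 1 of 5 blood miRNAs, miR-223, with 1.64, 2.28, and 2.23 RPM. The endothelial miR-126 has no entry in the table, though the paper reports it as highly expressed in PL. The epithelial and neural sums were highest in PMM, unlike miR-1-3p, which was highest in LDM, and miR-208a-3p, which was highest in PL. Their part in the differences of miR-1 and miR-208a was not tested. In whole muscle, fewer cells of a type and less RNA per cell cannot be told apart.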

How the data were processed

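Small RNA reads of PL, PMM, and LDM were filtered by the authors for the 3′ adapter, length, and junk, and mapped by BLAST to mammalian precursors of miRBase and to the pig genome (Sscrofa 10.2). The deposited table gives whole read counts of conserved miRNAs per library, with no normalization, and its heading speaks of most abundant sequences. Whether other isomiRs are counted in is not given in the sources used here. A mark in 118 of 456 cells stands where no read is listed and was read as 0. Identical mature sequences were merged, with the highest value of a library kept. The raw reads of each library served as totals, because the table holds only a part of it. For the ratios between 2 libraries, the 3 tests named in the study's methods were run with Bonferroni adjustment over all 108 unique miRNAs that had 3 reads or more in all. The choice of conserved miRNAs and of raw reads in place of mappable reads as totals is not the study's. The alternatives were other totals (summed conserved reads with and without miR-26b-5p, median-of-ratios size factors, and TMM, the trimmed mean of M values), other minimums of reads, Benjamini-Hochberg adjustment, Fisher's exact test without the others, all entries without merging, a fold threshold of 2, and an assumed variation between libraries of the same muscle. Precursors were folded with RNAfold 2.7.2. Named miRNAs are the members, miRNAs sharing their seed, the 3 nearest profiles, neighbors in rank, list members, and the most abundant miRNA. RefSeq names come from Sscrofa11.1. The code that makes the calls was tested on simulated data. Python 3.11.15, numpy 2.4.6, scipy 1.17.1, and matplotlib 3.10.9 were used. The members and lists were chosen with earlier results of these data known.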

Additional observations from a re-analysis of the deposited data

How the results depend on the processing

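No paired analysis was possible because there is 1 library per muscle, and for the same reason no library was left out. Of the 4 arms, 2 were called in PL against PMM, 2 in PL against LDM, and 1 in PMM against LDM. These calls were the same under the alternative totals, minimums, adjustments, and tests for miR-1-3p and miR-208a-3p, with the following exceptions. With a fold threshold of 2, miR-1-3p was not called between PMM and LDM (log2 ratio -0.71), which left 0 called by construction. A test with edgeR was planned and not run. In its place, an exact negative binomial test with an assumed coefficient of variation (CV) between libraries of the same muscle was chosen after seeing the data. With a CV of 0.2, 0 arms were called in PMM against LDM, where miR-1-3p had the log2 ratio -0.71. With a CV of 0.4, miR-1-3p was called in no pair, at log2 ratios of -3.33 for PL over PMM, -4.05 for PL over LDM, and -0.71 for PMM over LDM, with adjusted p-values by that exact test of 0.065, 0.0044, and 1, and miR-208a-3p was not called between PL and PMM (4.19, exact test, adjusted p = 0.0011). This left 0, 1, and 0 arms called, the 1 being miR-208a-3p in PL over LDM. The true variation between animals, or between libraries of the same muscle, is unknown, and no assumed value was tested against the data. With summed conserved reads as library total, miR-1-5p was also called lower in PL, at -2.86 against PMM and -3.20 against LDM, and the log2 ratio of miR-208a-5p in PL over PMM turned to -0.53. Of that total, miR-26b-5p took 21348 of 23583 reads in PL. The number of reads limits miR-208a in LDM, with 1 read on its 3p arm. Over all tested miRNAs, the calls fell from 23 to 13 (CV of 0.2) and 3 (CV of 0.4) in PL against PMM, and from 25 to 3 (CV of 0.4) in PL against LDM. In PMM against LDM they fell from 12 to 8 (TMM), 8 (fold threshold of 2), 3 (CV of 0.2), and 0 (CV of 0.4), where 9 had an unadjusted p under 0.05 by the exact test.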

Other observations

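The base that sets the miR-1-3p entry apart from its precursor was looked at among all entries after the data were seen. Of the 152 listed miRNAs, 42 are 1 base away from their listed precursor, and in 6 of these the precursor has A where the miRNA has G. The commonest kind was T in the precursor and C in the miRNA, with 12 entries. A difference at position 17 was found in 2 entries, miR-1-3p and miR-30f-5p, each as A17G, and miR-30f-5p had 6, 4, and 2 reads in PL, PMM, and LDM. Of the 42, 7 have the difference within bases 2 to 8. Only 5 of the 42 had at least 100 reads over the libraries, and miR-1-3p was the most abundant of these with 44, 892, and 1318 reads. The listed precursors of an entry can differ between its arms. Those of miR-1 differed at 4 of 72 overlapping bases, and those of miR-208a at 3 of 71. Whether the porcine genome holds the listed base was not tested.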
